A study of Homo sapiens with 12 samples.

Results

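The WNT ligands, their cell-surface receptors and their secreted antagonists were described across naive and primed cultures of human embryonic stem cells. Genes were taken by symbol: every WNT gene, every FZD (frizzled) gene, SFRP1, SFRP2, SFRP4, SFRP5, DKK1 to DKK4, FRZB, WIF1, the co-receptors LRP5, LRP6, ROR1, ROR2 and RYK, and PORCN. The tables listed 45 such genes among 23615 gene symbols, namely 19 ligands, 10 frizzled receptors, 5 co-receptors, 10 secreted antagonists and PORCN. No expression value was used to choose them.

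RNA-seq of poly(A) RNA from hand-picked colonies covered 12 libraries in 4 groups of 3, from the embryonic stem cell lines H9 and RUES-2. Naive H9 (passages 27 to 31) and naive RUES-2 (passages 24 to 26) grew in a medium with 5 mM glucose, 20 ng/mL LIF, 18 µg/mL insulin, 1 µM PD0325901, which inhibits MEK, and 3 µM CHIR99021, which inhibits the kinase GSK3. Primed H9 (passages 31 to 35) and primed RUES-2 (passages 30 to 33) grew on mitomycin C-treated mouse embryonic fibroblast feeders with knockout serum replacement and 4 ng/mL bFGF. The title names transient inhibition of mTor as the route to the naive state, while the labels of the naive libraries list no mTOR inhibitor and no feeders. State and medium therefore cannot be told apart. Each group's 3 libraries are labelled biological replicates, with no word on whether they came from separate cultures, and p-values therefore reflect only the variation among the libraries sequenced.

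In genes whose expression depends on a line's genotype, 3 of the 12 libraries stood apart from others with the same line label, and 0 of the 3 carried the label H9. The RUES-2 groups are therefore called RUES-2-labelled, and each comparison that uses those 3 libraries could not be fitted without them. The naive against primed RUES-2-labelled comparison, and with it the difference between line labels, sets libraries of differing genotype against each other, so that state and genotype cannot be told apart there. The summed level of 8 pluripotent stem cell markers was 1179 to 1234 FPKM in naive H9 libraries, against 1956 to 2357 FPKM in primed H9 libraries. It was 1313 to 1614 FPKM in naive RUES-2-labelled libraries, against 1877 to 2300 FPKM in primed RUES-2-labelled libraries. Each of the 8 had a mean of at least 1 FPKM in every group. Means of all 8 were lower in naive than in primed H9, and 7 of 8 were lower in naive RUES-2-labelled libraries. NANOG was the exception there, averaging 299.9 FPKM in naive RUES-2-labelled and 50.8 FPKM in primed RUES-2-labelled libraries. Depth relative to the mean library, estimated from the deposited confidence bounds, ran from 0.673 to 1.58, and 12681 to 13593 genes reached 1 FPKM per library.

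WNT proteins are secreted lipid-modified ligands. PORCN attaches the lipid in the endoplasmic reticulum, and the secreted ligand binds a frizzled receptor together with LRP5 or LRP6, which stops GSK3 from marking β-catenin for destruction, so that β-catenin reaches TCF and LEF proteins on DNA. ROR1, ROR2 and RYK serve other branches that do not use β-catenin, and WNT5A is the classic ligand of ROR2. SFRP proteins, FRZB and WIF1 capture ligands outside the cell, while DKK1 blocks LRP5 and LRP6. In the mouse embryo Wnt3 is needed to form the primitive streak, and in human pluripotent cells WNT or a GSK3 inhibitor can start mesendoderm differentiation.

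Summed ligand mRNA was higher in naive cultures, while summed frizzled mRNA was lower, with a larger share from FZD10 and a smaller one from FZD7. The 19 ligands summed to 71.2 ± 4.44 FPKM in naive H9 and 11.2 ± 0.926 FPKM in primed H9 (SD, n = 3 each), a ratio of 6.37. They summed to 57.5 ± 10.6 FPKM in naive RUES-2-labelled and 9.60 ± 2.13 FPKM in primed RUES-2-labelled libraries, a ratio of 5.99. The 10 frizzled genes summed to 101 ± 4.63 FPKM in naive H9 and 142 ± 9.13 FPKM in primed H9, and to 75.0 ± 8.33 FPKM in naive RUES-2-labelled and 150.3 ± 8.55 FPKM in primed RUES-2-labelled libraries. Co-receptor sums lay closer together, at 71.8 ± 3.92 FPKM in naive H9 and 69.0 ± 1.48 FPKM in primed H9, and at 56.8 ± 5.46 FPKM in naive RUES-2-labelled and 64.5 ± 0.871 FPKM in primed RUES-2-labelled libraries. Antagonist sums were 141 ± 7.84 FPKM in naive H9 and 250 ± 135 FPKM in primed H9, and 129 ± 18.9 FPKM in naive RUES-2-labelled and 211 ± 46.7 FPKM in primed RUES-2-labelled libraries. The primed antagonist sums varied most, because SFRP1 and SFRP2 did. These are levels in bulk RNA, in which fewer cells of a type and less RNA per cell cannot be told apart.

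A gene was tested where it reached 1 FPKM in at least 3 libraries, with limma on log2(FPKM + 1), and called at an adjusted p under 0.05 over all 14429 genes tested. Fold changes below are log2 differences on that scale with their SE, naive minus primed, and they understate the change of low genes. In H9, 33 of the 45 genes were tested, and 13 were higher and 10 lower in naive cultures. Over all genes 20.4% were called higher and 23.9% lower in H9. In the RUES-2-labelled libraries 14 of the 33 were higher and 9 lower, where 23.1% of all genes were higher and 23.7% lower. The median fold change of the 33 was -0.05 in H9 and -0.07 in the RUES-2-labelled libraries, beside -0.01 and 0.01 over all genes. By role, 8 of the 9 tested ligands were higher and 0 lower under each line label, with medians of 1.66 in H9 and 1.43 in the RUES-2-labelled libraries. Of the 10 frizzled genes 2 were higher and 4 lower in H9, and 2 higher and 3 lower in the RUES-2-labelled libraries. The filter can pass a gene through the group where it is high alone. WNT2, WNT3A, WNT10B and WNT11 were under 1 FPKM in every primed library and passed through naive libraries alone. WNT5B and WNT8A reached 1 FPKM in too few primed libraries to pass without naive ones, while WNT3 and WNT5A reached it in every primed library. The count and medians of the 9 tested ligands therefore depend on the filter and do not stand for all 19.

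WNT8A, WNT3 and WNT5B carried most of the naive ligand level. WNT8A, which in the mouse marks the posterior epiblast and primitive streak (hg19 chr5:137419774-137427199), had 21.8, 18.0 and 23.6 FPKM in naive H9 libraries, against 1.04, 1.22 and 0.514 FPKM in primed H9 libraries. It had 11.1, 9.63 and 13.8 FPKM in naive RUES-2-labelled libraries, against 0.534, 0.357 and 0.712 FPKM in primed RUES-2-labelled libraries. The groups did not overlap and the means differed by a factor of 22.9 in H9 and 21.6 in the RUES-2-labelled libraries, with fold changes of 3.54 ± 0.17 (adjusted p = 4.44e-07) and 3.02 ± 0.17 (adjusted p = 1.34e-06). WNT3 (hg19 chr17:44841687-44896082) had 12.5, 14.1 and 12.6 FPKM in naive H9 libraries, against 5.51, 1.58 and 4.21 FPKM in primed H9 libraries. It had 18.7, 13.0 and 11.6 FPKM in naive RUES-2-labelled libraries, against 1.34, 1.27 and 3.01 FPKM in primed RUES-2-labelled libraries. Naive libraries were again higher throughout, with fold changes of 1.66 ± 0.33 (adjusted p = 0.00254) in H9 and 2.45 ± 0.33 (adjusted p = 0.000224) in the RUES-2-labelled libraries. WNT5B, a close relative of WNT5A, had 9.84, 14.2 and 10.8 FPKM in naive H9 libraries, against 0.499, 2.36 and 0.224 FPKM in primed H9 libraries. It had 12.1, 6.65 and 15.6 FPKM in naive RUES-2-labelled libraries, against 0.692, 0.520 and 2.03 FPKM in primed RUES-2-labelled libraries. Primed replicates spread more widely in proportion than naive ones, and the fold changes were 2.77 ± 0.41 (adjusted p = 0.000437) in H9 and 2.58 ± 0.41 (adjusted p = 0.000612) in the RUES-2-labelled libraries.

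The other ligands that rose in naive cultures were lower in level. WNT5A had 9.72, 5.47 and 11.7 FPKM in naive H9 libraries, against 1.05, 1.15 and 1.29 FPKM in primed H9 libraries. It had 5.34, 3.27 and 6.91 FPKM in naive RUES-2-labelled libraries, against 1.03, 1.02 and 1.67 FPKM in primed RUES-2-labelled libraries. Its 6 primed values lay between 1.02 and 1.67 FPKM, below every naive value, and its fold changes were 2.15 ± 0.27 (adjusted p = 0.000143) in H9 and 1.43 ± 0.27 (adjusted p = 0.00156) in the RUES-2-labelled libraries. WNT11, which like WNT5A acts mainly without β-catenin, had 1.75, 0.803 and 2.60 FPKM in naive H9 libraries, against 0.123, 0.104 and 0.129 FPKM in primed H9 libraries. It had 5.13, 7.15 and 4.08 FPKM in naive RUES-2-labelled libraries, against 0.281, 0.0975 and 0.243 FPKM in primed RUES-2-labelled libraries. The naive values were higher in the RUES-2-labelled libraries than in H9, and the fold changes were 1.23 ± 0.23 (adjusted p = 0.00199) in H9 and 2.40 ± 0.23 (adjusted p = 3.1e-05) in the RUES-2-labelled libraries. WNT2, a β-catenin ligand of the placenta and lung in the mouse, had 5.85, 3.82 and 7.96 FPKM in naive H9 libraries, against 0, 0 and 0.0420 FPKM in primed H9 libraries. It had 0.761, 0.554 and 3.83 FPKM in naive RUES-2-labelled libraries, against 0, 0 and 0.0159 FPKM in primed RUES-2-labelled libraries. It was listed at 0 in 4 of 6 primed libraries, and 1 naive RUES-2-labelled library stood above the other 2. Its fold changes were 2.72 ± 0.37 (adjusted p = 0.000249) in H9 and 1.23 ± 0.37 (adjusted p = 0.0188) in the RUES-2-labelled libraries. Without naive RUES-2 replicate 3 the value for the RUES-2-labelled libraries was 0.72 (adjusted p = 0.0226), and the call ended when those 6 libraries were fitted alone (adjusted p = 0.0573).

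WNT3A, the ligand most used to activate β-catenin in culture, had 2.20, 3.06 and 0.629 FPKM in naive H9 libraries, against 0.102, 0.349 and 0 FPKM in primed H9 libraries. It had 0.743, 0.576 and 1.29 FPKM in naive RUES-2-labelled libraries, against 0.0749, 0.0303 and 0.0756 FPKM in primed RUES-2-labelled libraries. All 6 naive values exceeded the primed ones of the same line label, although naive H9 replicate 3 was well below its group. The fold change was 1.28 ± 0.29 (adjusted p = 0.00496) in H9 and 0.80 ± 0.29 (adjusted p = 0.0413) in the RUES-2-labelled libraries. The RUES-2-labelled call ended without naive H9 replicate 1, without primed H9 replicate 1 and without any 1 of the 6 RUES-2-labelled libraries (adjusted p from 0.0503 to 0.131). It also ended with the replicate block (0.0549) and with no filter on low values (0.0528). WNT10B, known for bone formation in the mouse, had 1.73, 1.79 and 2.14 FPKM in naive H9 libraries, against 0.782, 0.215 and 0.871 FPKM in primed H9 libraries. It had 1.22, 1.75 and 2.36 FPKM in naive RUES-2-labelled libraries, against 0.703, 0.543 and 0.812 FPKM in primed RUES-2-labelled libraries. Its fold changes were 0.85 ± 0.19 (adjusted p = 0.00431) in H9 and 0.70 ± 0.19 (adjusted p = 0.011) in the RUES-2-labelled libraries. WNT9A, which acts in joint formation in the mouse, was tested and not called, with group means from 0.75 to 1.08 FPKM. It passed the test in the RUES-2-labelled libraries without primed RUES-2 replicate 2, at 0.39 (adjusted p = 0.0384), and after quantile normalization, at 0.38 (adjusted p = 0.0479).

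**Figure D1:**
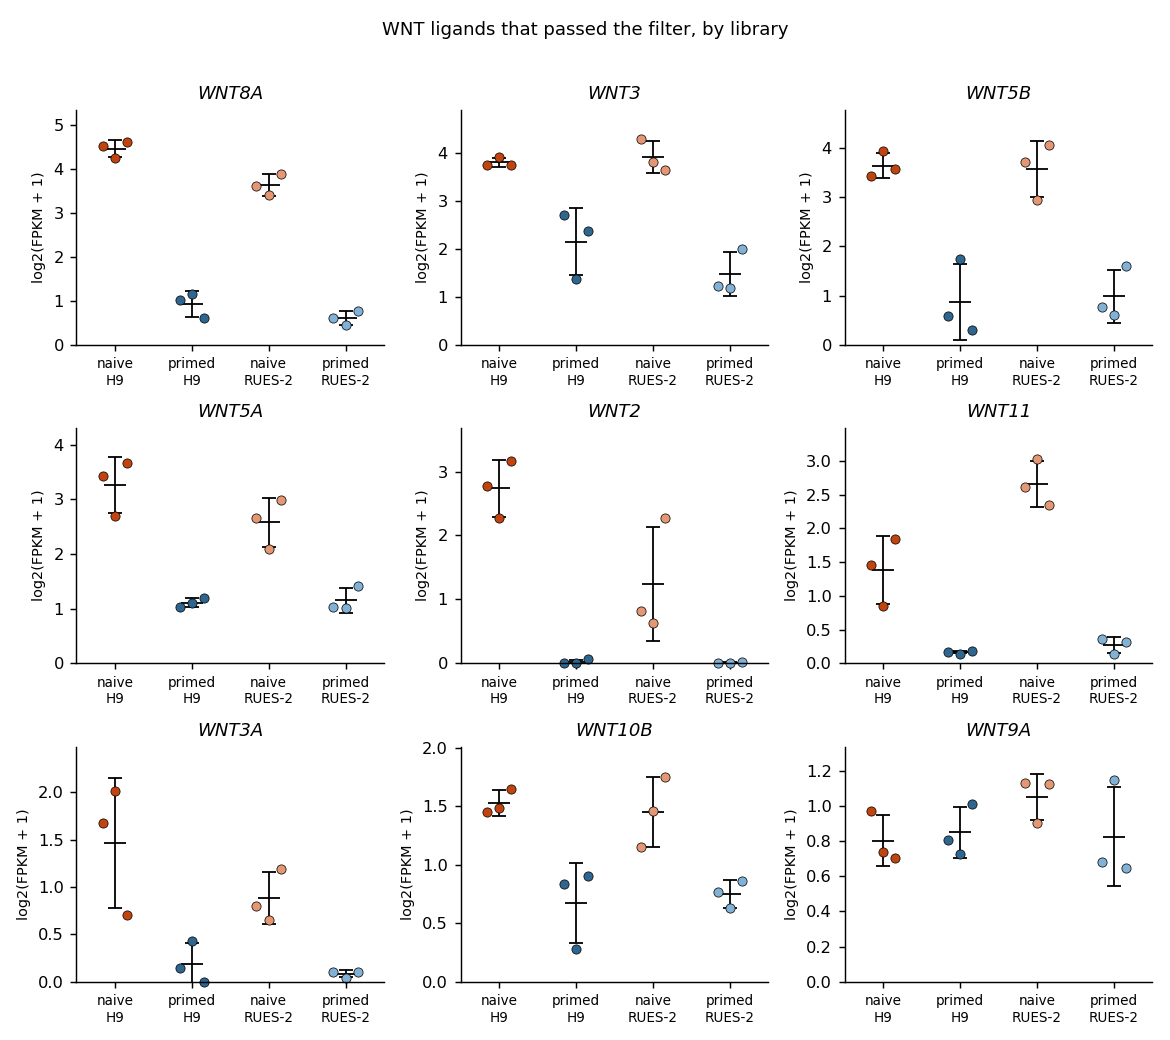
Level of the 9 tested WNT ligands as log2(FPKM + 1) on the y axis for the 4 groups on the x axis. Points are libraries, and the horizontal mark and bars are the mean ± SD of 3. WNT8A, WNT3 and WNT5B have the highest naive levels, and WNT9A is about the same in all groups.

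The remaining 10 ligands did not reach the filter and were not tested: WNT1, WNT2B, WNT4, WNT6, WNT7A, WNT7B, WNT8B, WNT9B, WNT10A and WNT16. Their highest group means ran from 0.194 FPKM for WNT16 to 1.09 FPKM for WNT4. WNT4, needed for kidney and ovary development in the mouse, had 1.41, 1.32 and 0.538 FPKM in naive H9 libraries, against 0.248, 0.280 and 0.345 FPKM in primed H9 libraries. Naive H9 was higher throughout, and the RUES-2-labelled groups overlapped. WNT1, the founding member of the family and a neighbour of WNT10B, had 0.910, 0.946 and 0.213 FPKM in naive H9 libraries, against 0, 0.0172 and 0 FPKM in primed H9 libraries. It had 0.396, 0.527 and 0.609 FPKM in naive RUES-2-labelled libraries, against 0.0665, 0.162 and 0.141 FPKM in primed RUES-2-labelled libraries. With no filter on low values WNT1 and WNT4 were called higher in naive H9, at 0.72 ± 0.15 (adjusted p = 0.00542) and 0.67 ± 0.20 (adjusted p = 0.027), and no other gene of the 12 below the filter was called in any comparison. Several ligands lie side by side in the genome. In hg19 WNT10B and WNT1 are 6.6 kb apart on chromosome 12, WNT6 and WNT10A 6.3 kb apart on chromosome 2, WNT3 and WNT9B 32.9 kb apart on chromosome 17, and WNT9A and WNT3A 59.0 kb apart on chromosome 1. Of the pair on chromosome 17, WNT3 reached 13.1 ± 0.925 FPKM in naive H9 while WNT9B stayed at 0.370 ± 0.0798 FPKM.

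Several lists of markers of other cell types also had higher sums in naive cultures. Whether these sums followed the ligands from library to library was not tested. The sum of 10 fibroblast markers (COL1A1, COL1A2, COL3A1, LUM, DCN, PDGFRA, PDGFRB, FBN1, MMP2 and COL6A3) was 420 to 614 FPKM in naive H9 libraries, against 60.04 to 92.3 FPKM in primed H9 libraries. It was 240.5 to 1137 FPKM in naive RUES-2-labelled libraries, against 37.4 to 77.6 FPKM in primed RUES-2-labelled libraries. The sum of 7 mesendoderm and primitive streak markers (T, MIXL1, EOMES, GSC, HAND1, MESP1 and FOXA2) was 113 to 164 FPKM in naive H9 libraries, against 8.77 to 43.0 FPKM in primed H9 libraries. It was 102 to 178 FPKM in naive RUES-2-labelled libraries, against 12.4 to 34.5 FPKM in primed RUES-2-labelled libraries. The primed and naive ranges of both lists were apart under each line label, and no marker of either list was at 0 in every library of a group. All 10 fibroblast markers had a mean of at least 1 FPKM in both naive groups and 8 of 10 in both primed groups, and for the streak list the counts were 7 of 7 and 6 of 7. Means were higher in naive than in primed cultures for all 10 fibroblast markers and all 7 streak markers, the exception being GSC in H9, at 1.11 FPKM in naive H9 and 2.90 FPKM in primed H9. Sums of 7 primitive endoderm markers were 108 to 204 FPKM in naive H9 libraries, against 64.6 to 74.3 FPKM in primed H9 libraries, and 125 to 204 FPKM in naive RUES-2-labelled libraries, against 79.0 to 90.9 FPKM in primed RUES-2-labelled libraries. Those of 7 neural ectoderm markers were 119 to 134 FPKM in naive H9 libraries, against 66.8 to 73.5 FPKM in primed H9 libraries, and 62.5 to 93.0 FPKM in naive RUES-2-labelled libraries, against 48.0 to 75.6 FPKM in primed RUES-2-labelled libraries. Primitive endoderm sums were higher in all naive libraries, and neural sums were so in H9, while the RUES-2-labelled groups overlapped. COL4A1 and LAMB1 made up most of the endoderm sum, at 79.1 and 53.3 FPKM in naive H9. In primed H9 they averaged 27.7 and 33.8 FPKM. Of the endoderm list 6 of 7 means were higher in naive H9 and 7 of 7 in naive RUES-2-labelled libraries. GATA4 and GATA6 were higher under both line labels. GATA6 averaged 6.25 FPKM in naive H9 and 1.56 FPKM in primed H9. It averaged 6.40 FPKM in naive RUES-2-labelled and 2.75 FPKM in primed RUES-2-labelled libraries. SOX17 was the exception in H9, averaging 0.524 FPKM in naive H9 and 1.499 FPKM in primed H9. It averaged 5.7 FPKM in naive RUES-2-labelled and 2.77 FPKM in primed RUES-2-labelled libraries. Means of 6 of the 7 neural markers were higher in naive H9, and 4 of 7 in naive RUES-2-labelled libraries. NES made up most of the neural sum, at 93.4 FPKM in naive H9 and 62.3 FPKM in primed H9. NES averaged 50.6 FPKM in naive RUES-2-labelled and 52.8 FPKM in primed RUES-2-labelled libraries, and SOX1 was also lower in the naive ones. OLIG3 averaged 20.3 FPKM in naive H9 and 0.492 FPKM in primed H9. PAX6 was lower in naive cultures under both line labels, at 0.0958 FPKM in naive H9 and 0.627 FPKM in primed H9. It was at 0.178 FPKM in naive RUES-2-labelled and 0.576 FPKM in primed RUES-2-labelled libraries. Those of 6 neural crest markers were 15.7 to 52.4 FPKM in naive H9 libraries, against 8.77 to 14.8 FPKM in primed H9 libraries, and 11.6 to 26.9 FPKM in naive RUES-2-labelled libraries, against 4.54 to 9.05 FPKM in primed RUES-2-labelled libraries. Those of 7 amnion and trophoblast markers were 10.2 to 17.2 FPKM in naive H9 libraries, against 3.97 to 7.04 FPKM in primed H9 libraries, and 8.49 to 13.8 FPKM in naive RUES-2-labelled libraries, against 12.5 to 20.8 FPKM in primed RUES-2-labelled libraries. Neural crest sums were higher in all naive libraries, and amnion and trophoblast sums were so in H9, while the RUES-2-labelled groups overlapped. Within the crest list SNAI2, MSX1, PAX3 and TFAP2B had higher means in naive cultures and SOX10 and FOXD3 lower ones. FOXD3 averaged 0.175 FPKM in naive H9 and 7.87 FPKM in primed H9, and 0.243 FPKM in naive RUES-2-labelled and 4.89 FPKM in primed RUES-2-labelled libraries. Of the amnion and trophoblast list 5 of 7 means were higher in naive H9 and 2 of 7 in naive RUES-2-labelled libraries. CDX2 carried the H9 sum, at 9.65 FPKM in naive H9 and 0.461 FPKM in primed H9, while KRT7 averaged 0.187 FPKM in naive H9 and 3.77 FPKM in primed H9. The part of these cells in the ligand, receptor and antagonist values was not tested.

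Frizzled mRNA changed in make-up as well as in amount. FZD7, the frizzled receptor best known from human embryonic stem cells (hg19 chr2:202899310-202903160), had 51.7, 42.5 and 43.4 FPKM in naive H9 libraries, against 84.7, 76.8 and 79.0 FPKM in primed H9 libraries. It had 22.7, 19.6 and 30.1 FPKM in naive RUES-2-labelled libraries, against 71.9, 70.7 and 87.7 FPKM in primed RUES-2-labelled libraries. It was the most abundant frizzled mRNA in every library and lower in all naive libraries, with fold changes of -0.80 ± 0.15 (adjusted p = 0.00158) in H9 and -1.65 ± 0.15 (adjusted p = 1.66e-05) in the RUES-2-labelled libraries. FZD5, which the mouse needs for yolk sac and placental vessels (hg19 chr2:208627310-208634143), had 3.34, 3.78 and 2.85 FPKM in naive H9 libraries, against 25.6, 14.4 and 45.0 FPKM in primed H9 libraries. It had 19.8, 16.6 and 10.5 FPKM in naive RUES-2-labelled libraries, against 39.7, 41.0 and 25.9 FPKM in primed RUES-2-labelled libraries. Naive H9 held the lowest values of all groups, and the 3 primed H9 libraries spread widely. The fold changes of FZD5 were -2.63 ± 0.36 (adjusted p = 0.000251) in H9 and -1.15 ± 0.36 (adjusted p = 0.0226) in the RUES-2-labelled libraries. The RUES-2-labelled call ended without naive RUES-2 replicate 3 (adjusted p = 0.0833), without primed RUES-2 replicate 1 (0.0708) or without primed RUES-2 replicate 2 (0.0703).

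FZD10 went the other way. This receptor (hg19 chr12:130647004-130650285) had 19.0, 19.2 and 19.7 FPKM in naive H9 libraries, against 0.298, 0.348 and 0.469 FPKM in primed H9 libraries. It had 5.40, 3.87 and 6.95 FPKM in naive RUES-2-labelled libraries, against 0, 0.341 and 0 FPKM in primed RUES-2-labelled libraries. The naive H9 values lay within 1 FPKM of each other, and 2 of the 3 primed RUES-2-labelled libraries listed it at 0. Its fold changes were 3.89 ± 0.17 (adjusted p = 2.51e-07) in H9 and 2.51 ± 0.17 (adjusted p = 3.24e-06) in the RUES-2-labelled libraries. FZD10 made up 19.2 ± 1.12% of the summed frizzled FPKM in naive H9 and 0.261 ± 0.0476% in primed H9 (mean ± SD, n = 3 each), and 7.12 ± 1.28% in naive RUES-2-labelled and 0.0713 ± 0.123% in primed RUES-2-labelled libraries. The share of FZD5 was 3.30 ± 0.488% in naive H9 and 19.6 ± 9.49% in primed H9, against 21.3 ± 7.38% in naive RUES-2-labelled and 23.5 ± 4.69% in primed RUES-2-labelled libraries. The share of FZD7 was 45.4 ± 2.89% in naive H9 and 56.7 ± 4.38% in primed H9, against 31.9 ± 3.93% in naive RUES-2-labelled and 51.4 ± 8.98% in primed RUES-2-labelled libraries. By mean share FZD10 thus stood next to FZD7 in naive H9, while FZD5 held that place in the other 3 groups.

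**Figure D2:**
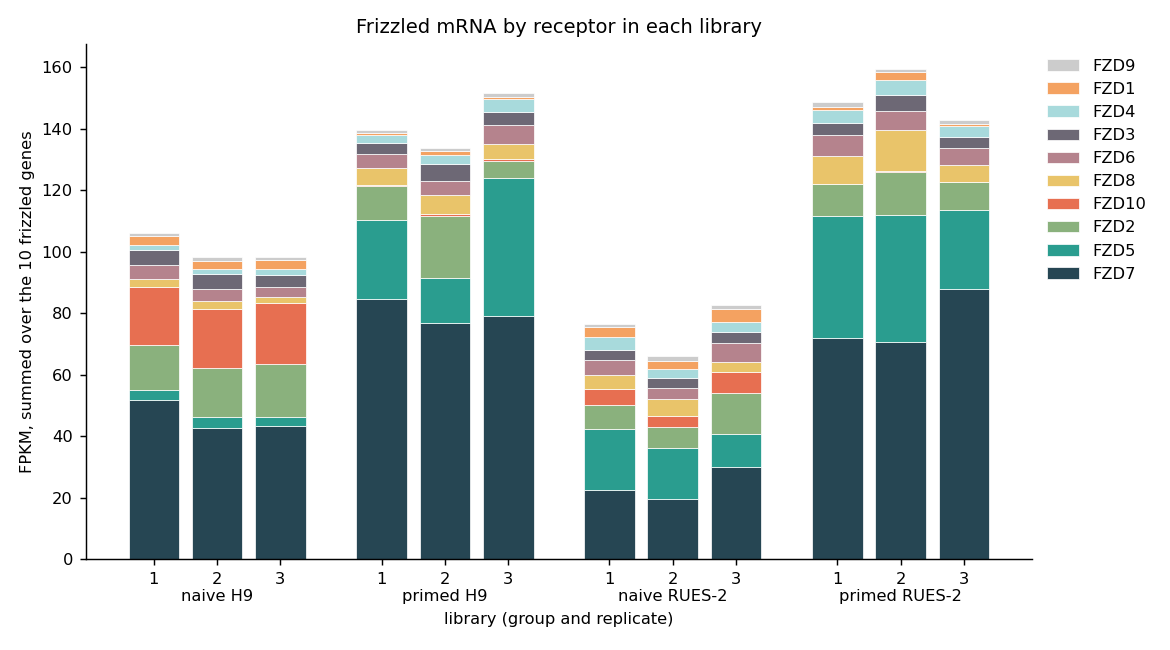
FPKM of the 10 frizzled genes stacked for each of the 12 libraries on the x axis, by group and replicate. Naive bars are shorter, and FZD10 forms a visible part of the bar in naive libraries, 19.2 ± 1.12% in naive H9 and 7.12 ± 1.28% in naive RUES-2-labelled libraries.

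FZD1, which belongs to the same subfamily as FZD2 and FZD7, had 2.92, 2.66 and 2.69 FPKM in naive H9 libraries, against 0.459, 1.37 and 0.716 FPKM in primed H9 libraries. It had 3.24, 2.88 and 4.14 FPKM in naive RUES-2-labelled libraries, against 1.06, 2.71 and 0.747 FPKM in primed RUES-2-labelled libraries. FZD1 rose in naive cultures, by 1.05 ± 0.26 (adjusted p = 0.0086) in H9 and 0.89 ± 0.26 (adjusted p = 0.018) in the RUES-2-labelled libraries. The RUES-2-labelled call ended without naive RUES-2 replicate 3 (adjusted p = 0.0622), without primed RUES-2 replicate 1 (0.0643) or replicate 3 (0.0658), and with those 6 libraries alone (0.0501). FZD8, whose ligand-binding domain was crystallised with Xenopus Wnt8, had 2.38, 2.53 and 2.08 FPKM in naive H9 libraries, against 5.67, 6.45 and 4.87 FPKM in primed H9 libraries. It had 4.40, 5.33 and 3.29 FPKM in naive RUES-2-labelled libraries, against 9.18, 13.4 and 5.54 FPKM in primed RUES-2-labelled libraries. FZD8 was lower in naive cultures without overlap, with fold changes of -0.99 ± 0.25 (adjusted p = 0.00855) in H9 and -0.91 ± 0.25 (adjusted p = 0.0127) in the RUES-2-labelled libraries. With the 6 RUES-2-labelled libraries alone its adjusted p was 0.0535. FZD4, which also binds the unrelated ligand Norrin in the retina, had 1.78, 1.65 and 2.06 FPKM in naive H9 libraries, against 2.72, 3.02 and 4.21 FPKM in primed H9 libraries. It had 4.46, 2.80 and 3.29 FPKM in naive RUES-2-labelled libraries, against 4.23, 4.67 and 3.65 FPKM in primed RUES-2-labelled libraries. It fell in naive H9 at -0.60 ± 0.16 (adjusted p = 0.0124), and the RUES-2-labelled groups overlapped at -0.21 ± 0.16 (adjusted p = 0.306), with a difference between line labels of 0.39 ± 0.23 (adjusted p = 0.372).

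FZD2, FZD3, FZD6 and FZD9 were not called under either line label. FZD2 averaged 15.9 ± 1.40 FPKM in naive H9 and 12.3 ± 7.55 FPKM in primed H9, and 9.17 ± 3.59 FPKM in naive RUES-2-labelled and 11.2 ± 2.56 FPKM in primed RUES-2-labelled libraries (SD, n = 3 each). It passed the test in H9 without primed H9 replicate 2, at 0.93 (adjusted p = 0.0341). FZD6, a receptor of hair and tissue polarity in the mouse, averaged 3.96 ± 0.829 FPKM in naive H9 and 5.03 ± 1.07 FPKM in primed H9, and 4.89 ± 1.33 FPKM in naive RUES-2-labelled and 6.00 ± 0.587 FPKM in primed RUES-2-labelled libraries. Single-library values of FZD3 ran from 3.15 to 5.47 FPKM and those of FZD9 from 0.885 to 1.65 FPKM.

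Among the co-receptors ROR2 was higher and ROR1 lower in naive cultures, and RYK had the highest mean level in all 4 groups. ROR2, a receptor tyrosine kinase that binds WNT5A (hg19 chr9:94484878-94712444), had 22.0, 22.1 and 19.4 FPKM in naive H9 libraries, against 2.46, 2.54 and 1.65 FPKM in primed H9 libraries. It had 11.1, 8.70 and 13.7 FPKM in naive RUES-2-labelled libraries, against 4.48, 3.46 and 4.45 FPKM in primed RUES-2-labelled libraries. ROR1, its closest relative, had 14.04, 9.99 and 15.0 FPKM in naive H9 libraries, against 24.4, 24.0 and 21.6 FPKM in primed H9 libraries. It had 6.72, 5.19 and 9.30 FPKM in naive RUES-2-labelled libraries, against 19.3, 21.5 and 16.9 FPKM in primed RUES-2-labelled libraries. ROR2 was higher and ROR1 lower in every naive library than in any primed library of its line label. Fold changes of ROR2 were 2.79 ± 0.16 (adjusted p = 1.35e-06) in H9 and 1.23 ± 0.16 (adjusted p = 0.0002) in the RUES-2-labelled libraries, and those of ROR1 were -0.82 ± 0.19 (adjusted p = 0.00584) and -1.35 ± 0.19 (adjusted p = 0.000274). Naive H9 libraries held more ROR2 than ROR1 mRNA per length, and primed H9 libraries held more ROR1.

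The β-catenin co-receptors LRP5 and LRP6 differed in how far they moved. LRP5, also known for its part in bone mass, had 3.44, 3.07 and 3.33 FPKM in naive H9 libraries, against 8.11, 8.39 and 8.67 FPKM in primed H9 libraries. It had 5.87, 8.95 and 5.04 FPKM in naive RUES-2-labelled libraries, against 8.21, 9.30 and 7.72 FPKM in primed RUES-2-labelled libraries. It fell in naive H9 at -1.14 ± 0.16 (adjusted p = 0.000262), and the RUES-2-labelled groups overlapped at -0.33 ± 0.16 (adjusted p = 0.101), with a difference between line labels of 0.80 ± 0.22 (adjusted p = 0.0616). Without naive RUES-2 replicate 2 the RUES-2-labelled fall was called, at -0.54 (adjusted p = 0.00234). The difference was called without that library, at 0.59 (adjusted p = 0.0425), and without naive RUES-2 replicate 3, at 0.95 (adjusted p = 0.0228). LRP6 had 9.35, 8.36 and 8.61 FPKM in naive H9 libraries, against 11.1, 11.5 and 11.3 FPKM in primed H9 libraries. It had 7.55, 7.88 and 7.75 FPKM in naive RUES-2-labelled libraries, against 11.7, 11.2 and 10.4 FPKM in primed RUES-2-labelled libraries. Its replicates were close, so a small fall was called under both line labels, at -0.33 ± 0.07 (adjusted p = 0.00273) in H9 and -0.47 ± 0.07 (adjusted p = 0.000297) in the RUES-2-labelled libraries. RYK, an inactive kinase that binds WNT proteins, averaged 25.5 ± 1.61 FPKM in naive H9 and 23.7 ± 0.667 FPKM in primed H9, and 24.2 ± 3.04 FPKM in naive RUES-2-labelled and 21.7 ± 2.54 FPKM in primed RUES-2-labelled libraries. Its fold changes were not called, with 95% intervals of -0.13 to 0.33 in H9 and -0.08 to 0.39 in the RUES-2-labelled libraries.

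**Figure D3:**
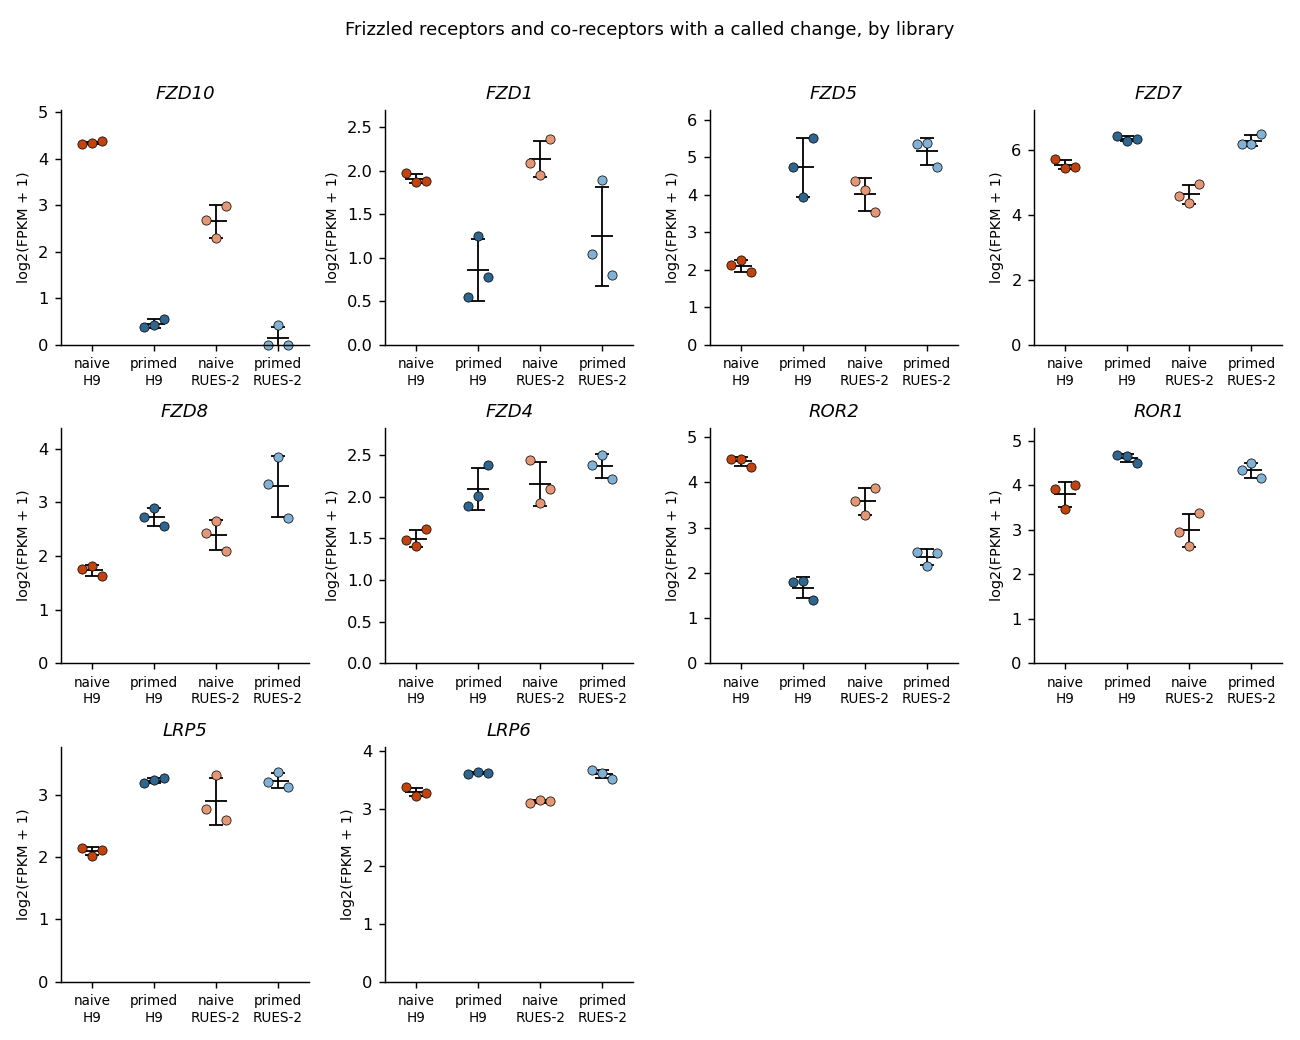
Level of the 10 receptors and co-receptors with a called change as log2(FPKM + 1) on the y axis, by group on the x axis, with libraries as points and mean ± SD of 3. FZD10, FZD1 and ROR2 are higher in naive libraries, and FZD5, FZD7, FZD8, ROR1 and LRP6 are lower under both line labels.

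Among the secreted antagonists DKK1 and DKK2 were higher in naive cultures under both line labels, and SFRP1 and SFRP5 were lower. DKK1, which removes LRP5 and LRP6 from signalling and is itself a known target of β-catenin (hg19 chr10:54074041-54077417), had 28.2, 18.3 and 27.8 FPKM in naive H9 libraries, against 1.37, 1.27 and 0.277 FPKM in primed H9 libraries. It had 32.6, 17.3 and 26.6 FPKM in naive RUES-2-labelled libraries, against 1.25, 1.86 and 2.75 FPKM in primed RUES-2-labelled libraries. The mean was 25.5 times as high in naive as in primed H9 and 13.1 times as high in the RUES-2-labelled libraries, with fold changes of 3.74 ± 0.31 (adjusted p = 1.03e-05) and 3.15 ± 0.31 (adjusted p = 2.93e-05). DKK2, a relative that can block or weakly activate LRP6 depending on the partner, had 1.80, 1.15 and 2.50 FPKM in naive H9 libraries, against 0.0616, 0.167 and 1.29 FPKM in primed H9 libraries. It had 1.08, 1.09 and 1.02 FPKM in naive RUES-2-labelled libraries, against 0.0403, 0.0734 and 0.0975 FPKM in primed RUES-2-labelled libraries. Primed H9 replicate 3 lay inside the naive H9 range, and the RUES-2-labelled groups were apart. DKK2 rose by 0.96 ± 0.26 (adjusted p = 0.0133) in H9 and 0.95 ± 0.26 (adjusted p = 0.0135) in the RUES-2-labelled libraries. The H9 call ended without naive H9 replicate 3 (adjusted p = 0.0551), without primed H9 replicate 1 (0.05001) and with the 6 H9 libraries alone (0.065). DKK3, a divergent member that does not block LRP6, was not called and averaged 7.00 ± 0.907 FPKM in naive H9 and 7.58 ± 1.45 FPKM in primed H9, and 8.67 ± 2.99 FPKM in naive RUES-2-labelled and 8.97 ± 0.595 FPKM in primed RUES-2-labelled libraries. DKK4 stayed below the filter, with single values from 0 to 2.41 FPKM, the highest in a primed H9 library.

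SFRP1, a soluble protein with a frizzled-like ligand-binding domain, had 34.3, 32.6 and 26.9 FPKM in naive H9 libraries, against 134, 179.8 and 49.0 FPKM in primed H9 libraries. It had 30.3, 29.7 and 34.8 FPKM in naive RUES-2-labelled libraries, against 90.2, 146 and 79.4 FPKM in primed RUES-2-labelled libraries. Naive values lay within 26.9 to 34.8 FPKM under both line labels, while primed values spread from 49.0 to 179.8 FPKM. SFRP1 fell in naive cultures, with fold changes of -1.74 ± 0.40 (adjusted p = 0.00545) in H9 and -1.66 ± 0.40 (adjusted p = 0.00634) in the RUES-2-labelled libraries. SFRP2 shared the primed spread and was not called, averaging 74.5 ± 11.3 FPKM in naive H9 and 113 ± 69.6 FPKM in primed H9, and 56.1 ± 7.38 FPKM in naive RUES-2-labelled and 79.7 ± 22.4 FPKM in primed RUES-2-labelled libraries. Primed H9 replicate 2 held the highest and primed H9 replicate 3 the lowest value of that group for both genes. SFRP5, a relative of SFRP1 at a far lower level, had 0.134, 0.190 and 0.316 FPKM in naive H9 libraries, against 1.18, 0.511 and 2.11 FPKM in primed H9 libraries. It had 0.147, 0.0891 and 0.196 FPKM in naive RUES-2-labelled libraries, against 4.45, 2.90 and 2.79 FPKM in primed RUES-2-labelled libraries. Its fold changes were -0.84 ± 0.23 (adjusted p = 0.0136) in H9 and -1.92 ± 0.23 (adjusted p = 0.00011) in the RUES-2-labelled libraries. SFRP4 was near 0 throughout, with a highest single value of 0.25 FPKM.

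FRZB, a secreted frizzled-like antagonist first found in cartilage, had 1.60, 1.51 and 1.19 FPKM in naive H9 libraries, against 3.00, 6.95 and 3.07 FPKM in primed H9 libraries. It had 3.81, 1.54 and 2.78 FPKM in naive RUES-2-labelled libraries, against 8.36, 18.2 and 4.29 FPKM in primed RUES-2-labelled libraries. Naive values were below primed ones under both line labels, at -1.06 ± 0.43 (adjusted p = 0.0698) in H9, which did not pass the test, and -1.46 ± 0.43 (adjusted p = 0.0186) in the RUES-2-labelled libraries, which did. The difference between line labels was -0.40 ± 0.61 (adjusted p = 0.759). The RUES-2-labelled call ended without naive RUES-2 replicate 2 (adjusted p = 0.0711), without primed RUES-2 replicate 2 (0.0582) and with those 6 libraries alone (0.0527). The H9 fall was called with the 6 H9 libraries alone (0.0286), without primed RUES-2 replicate 2 (0.0257) or replicate 3 (0.0343), and with a pseudocount of 0.1 (0.0421).

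WIF1, which binds WNT proteins through a domain unrelated to frizzled and was singled out after its values were seen, moved in opposite directions. It had 0.0443, 0.104 and 0.0580 FPKM in naive H9 libraries, against 0.520, 0.579 and 0.844 FPKM in primed H9 libraries. It had 2.18, 4.33 and 2.63 FPKM in naive RUES-2-labelled libraries, against 1.22, 0.516 and 1.23 FPKM in primed RUES-2-labelled libraries. The groups were apart under both line labels, naive below primed in H9 and above it in the RUES-2-labelled libraries. Its fold change was -0.62 ± 0.20 (adjusted p = 0.0299) in H9 and 1.01 ± 0.20 (adjusted p = 0.00236) in the RUES-2-labelled libraries. In H9 it lost its call when naive H9 replicate 1, 2 or 3 or primed H9 replicate 3 was left out (adjusted p from 0.0608 to 0.0921). Its size depended on the pseudocount: with 0.1 the fold change was -2.14 in H9 and 1.56 in the RUES-2-labelled libraries and the difference between line labels was 3.69, and with 0.5 the H9 value was -1.004. PORCN, the acyltransferase that every WNT ligand needs, had 4.11, 3.69 and 5.10 FPKM in naive H9 libraries, against 4.33, 7.01 and 7.99 FPKM in primed H9 libraries. It had 5.82, 5.17 and 4.55 FPKM in naive RUES-2-labelled libraries, against 10.3, 8.16 and 7.10 FPKM in primed RUES-2-labelled libraries. It was lower in naive RUES-2-labelled libraries at -0.61 ± 0.20 (adjusted p = 0.0261), and in H9 the groups overlapped at -0.46 ± 0.20 (adjusted p = 0.0793), with a difference between line labels of -0.15 ± 0.28 (adjusted p = 0.801). The RUES-2-labelled call ended without naive RUES-2 replicate 2 (0.0609) or replicate 3 (0.0821) and without primed RUES-2 replicate 1 (0.0998) or replicate 2 (0.0515), and the H9 fall was called without primed H9 replicate 1 (0.00955).

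**Figure D4:**
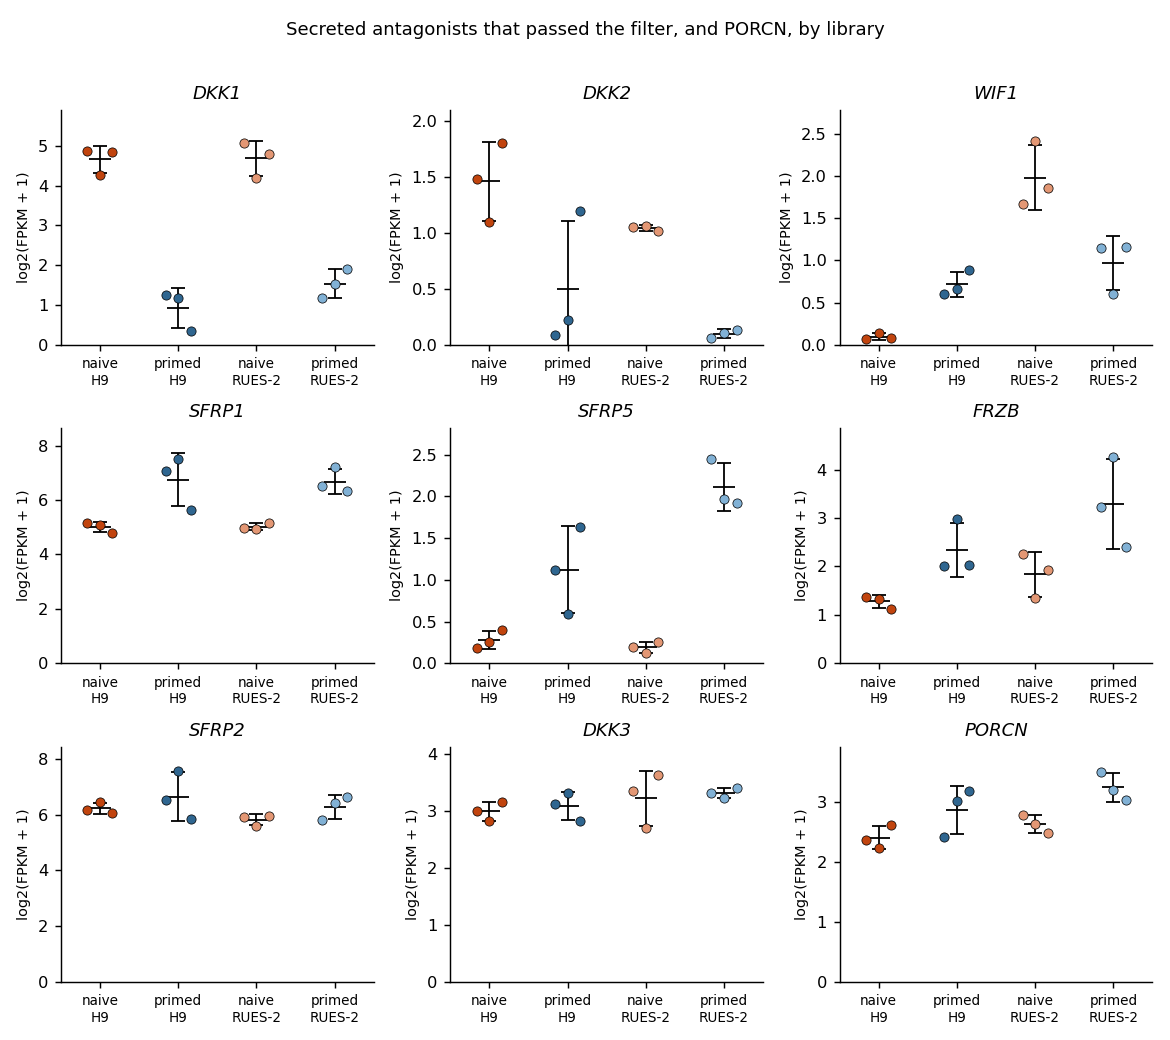
Level of the 8 tested secreted antagonists and PORCN as log2(FPKM + 1) on the y axis, by group on the x axis, with libraries as points and mean ± SD of 3. DKK1 is higher in all naive libraries, SFRP1 and SFRP5 are lower, and WIF1 is lowest in naive H9 and highest in naive RUES-2-labelled libraries.

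Both state comparisons called 13 of the 33 genes higher and 7 lower. They share no library, but the same fit gave both their estimate of the spread, so their calls are not independent. Over all genes 13.2% were called higher in both and 16.5% lower in both. Higher under both labels were the ligands WNT2, WNT3, WNT3A, WNT5A, WNT5B, WNT8A, WNT10B and WNT11, the receptors FZD1, FZD10 and ROR2, and the antagonists DKK1 and DKK2. Lower under both were FZD5, FZD7, FZD8, LRP6, ROR1, SFRP1 and SFRP5. The difference of the state effect between the line labels was tested in the same model, as the RUES-2-labelled change minus the H9 change. It was called higher for 1 of the 33 genes and lower for 3, where 3.77% of all genes were called higher and 1.93% lower. The genes were WIF1, higher at 1.63 ± 0.29 (adjusted p = 0.0109), and FZD10, ROR2 and FZD7, lower. For FZD10 the rise was smaller in the RUES-2-labelled libraries at -1.38 ± 0.24 (adjusted p = 0.0109), but with a pseudocount of 0.1 the difference was -0.35 (adjusted p = 0.815) and with 0.5 it was -1.23 (adjusted p = 0.0524). For ROR2 the difference was -1.56 ± 0.23 (adjusted p = 0.0049). For FZD7 the fall was larger in the RUES-2-labelled libraries at -0.85 ± 0.21 (adjusted p = 0.0403), and that call ended without any 1 of 10 libraries, the exceptions being naive RUES-2 replicate 3 and primed RUES-2 replicate 2 (adjusted p from 0.0593 to 0.102). It also ended with no filter (0.0503) and with a filter of 5 FPKM (0.0501).

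**Figure D5:**
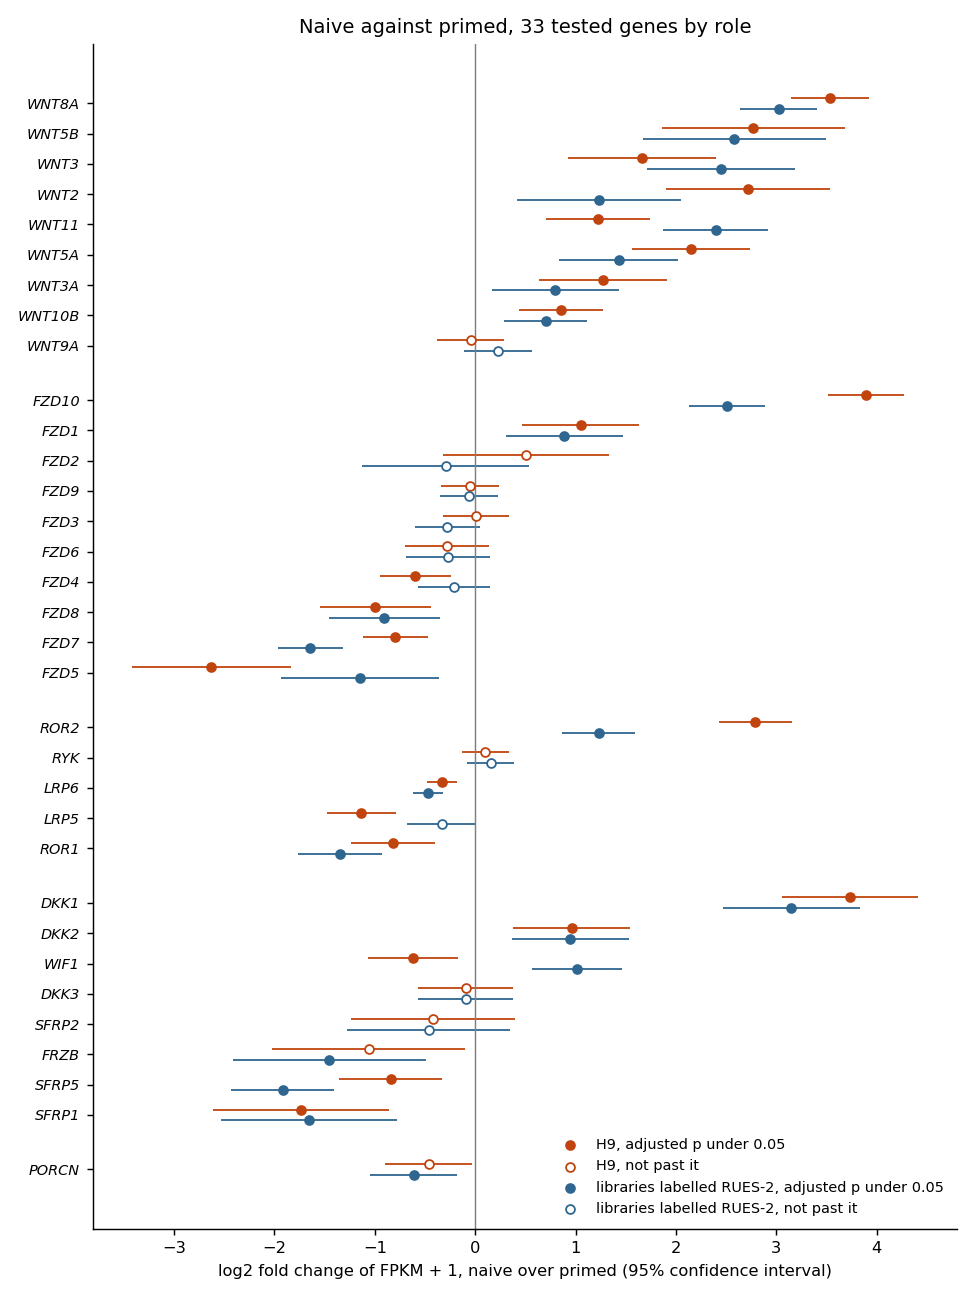
Log2 fold change of FPKM + 1, naive over primed, on the x axis with its 95% confidence interval for the 33 tested genes, grouped by role from ligands at the top to PORCN at the bottom. Filled points passed an adjusted p under 0.05. The 8 called ligands lie right of 0 under both line labels, and WIF1 lies on opposite sides of 0.

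The size of the fold change of low genes also depended on the pseudocount. With 0.1 in place of 1 it was 5.67 in H9 and 3.63 in the RUES-2-labelled libraries for WNT2, 3.06 and 2.54 for WNT3A, 2.92 and 4.20 for WNT11, and 1.61 and 1.22 for WNT10B, in the same order. It was 2.23 and 2.79 for DKK2 and -1.98 and -3.83 for SFRP5, while it moved by over 1.5 times in H9 alone for FZD1, to 1.71, and in the RUES-2-labelled libraries alone for FZD10, to 5.03. These fold changes kept their calls.

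Several other genes looked unequal between the line labels without passing that test. The difference was 1.48 ± 0.50 (adjusted p = 0.12) for FZD5, -1.48 ± 0.52 (adjusted p = 0.132) for WNT2, 1.17 ± 0.33 (adjusted p = 0.0689) for WNT11 and -1.08 ± 0.33 (adjusted p = 0.086) for SFRP5. Each passed without certain libraries. FZD5 did so without primed H9 replicate 2 (adjusted p = 0.031), WNT2 without naive RUES-2 replicate 3 (0.00466) and SFRP5 without primed H9 replicate 3 (0.023). WNT11 did so without naive H9 replicate 3 (0.0389) or without naive RUES-2 replicate 3 (0.0484).

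Between the lines, the primed cultures showed 0 called genes among the 33 in either direction by limma, and 3 had an unadjusted p under 0.05. Over all genes 1.34% were called higher in primed RUES-2-labelled than in primed H9 libraries and 0.471% lower. The 3 genes, named after their values were seen, were SFRP5 at 0.99 ± 0.23 (adjusted p = 0.0622), ROR2 at 0.68 ± 0.16 (adjusted p = 0.0721) and FZD8 at 0.57 ± 0.25 (adjusted p = 0.32), RUES-2-labelled minus H9. SFRP5 was called without primed H9 replicate 3, at 1.25 (adjusted p = 0.0146). Without the libraries that did not match their label, 0 of the genes were called in this comparison.

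The naive cultures differed more between the labels. The naive RUES-2-labelled group holds the libraries that did not match their line label. The values below therefore cannot be read as RUES-2 against H9. Of the 33 genes 5 were higher and 6 lower in naive RUES-2-labelled than in naive H9 libraries, where 11.2% of all genes were higher and 4.69% lower. This comparison uses the same naive libraries as the state comparisons, so it is no separate evidence for the differences above. FZD5 was higher at 1.91 ± 0.36 (adjusted p = 0.00585), WIF1 at 1.89 ± 0.20 (adjusted p = 0.000313) and WNT11 at 1.28 ± 0.23 (adjusted p = 0.00527), RUES-2-labelled minus H9, and LRP5 and FZD4 were also higher. FZD10 was lower at -1.69 ± 0.17 (adjusted p = 0.000218), WNT2 at -1.49 ± 0.37 (adjusted p = 0.0214) and FZD7 at -0.92 ± 0.15 (adjusted p = 0.00252), and ROR1, ROR2 and WNT8A were also lower. The WNT2 call ended without naive H9 replicate 1 (adjusted p = 0.0707) or replicate 3 (0.0806), without naive RUES-2 replicate 1 (0.0783) or replicate 2 (0.0831), and with the 6 naive libraries alone (0.0711). The FZD4 call ended without naive H9 replicate 1 (0.0696) or replicate 2 (0.0752) or naive RUES-2 replicate 1 (0.0707). The ROR1 call ended without naive H9 replicate 1 (0.0693) or replicate 3 (0.066), without naive RUES-2 replicate 1 (0.053) or replicate 2 (0.061), and with the 6 naive libraries alone (0.0513). The WNT8A call ended with a pseudocount of 0.1 (0.0679). Calls were gained for WNT3A without naive H9 replicate 3 (0.0146), for WNT5A without naive H9 replicate 2 (0.0355) and for FZD8 without primed RUES-2 replicate 2 (0.0406) or replicate 3 (0.0327). With the 6 naive libraries alone FZD8 (0.0313) and FZD3, at -0.34 (adjusted p = 0.0474), were also called.

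The start regions of genes that moved together were read for the letters that TCF and LEF proteins bind. RefSeq (GRCh38.p14) gave 36 windows for 32 of the 45 genes, each with 250 bases before and 50 after a transcript start. Words of CTTTG followed by 2 letters that are each A or T were searched on both strands. They occurred in 2 of these 36 windows (5.56%) and in 13.8% of 35116 windows of all genes. They were in 2 of 11 windows of genes higher under both line labels (18.2%) and in 0 of 4 windows of genes lower under both. Among the higher genes WNT5A and WNT5B had 2 windows each, and FZD10, WNT10B, WNT11 and DKK2 had none. Of the lower genes FZD7, LRP6 and SFRP1 had no window. The 2 windows with a match belong to DKK1, at chr10:52314031-52314330 on the plus strand, and WNT3, at chr17:46818643-46818942 on the minus strand. They are shown with that of WNT8A, at chr5:138083783-138084082 on the plus strand, the ligand with the largest fold change on the log2(FPKM + 1) scale under both line labels, which holds no such word. With a pseudocount of 0.1 WNT2 was larger in H9, and by ratio of means WNT11 was larger in the RUES-2-labelled libraries (26.3, against 21.6 for WNT8A). Sequences run 5′ to 3′ along the gene, and capitals mark the words.
DKK1: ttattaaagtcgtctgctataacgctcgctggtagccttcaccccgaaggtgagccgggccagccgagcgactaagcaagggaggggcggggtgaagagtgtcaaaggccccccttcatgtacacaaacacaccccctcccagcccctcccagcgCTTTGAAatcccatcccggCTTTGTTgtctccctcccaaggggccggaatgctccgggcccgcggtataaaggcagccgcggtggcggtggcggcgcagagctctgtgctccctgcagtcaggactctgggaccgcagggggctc
WNT3: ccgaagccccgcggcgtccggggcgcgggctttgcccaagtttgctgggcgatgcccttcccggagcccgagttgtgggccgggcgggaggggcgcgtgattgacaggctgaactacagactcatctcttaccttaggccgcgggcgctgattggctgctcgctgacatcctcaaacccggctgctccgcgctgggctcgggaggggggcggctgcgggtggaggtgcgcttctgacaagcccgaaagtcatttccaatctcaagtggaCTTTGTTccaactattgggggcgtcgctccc
WNT8A: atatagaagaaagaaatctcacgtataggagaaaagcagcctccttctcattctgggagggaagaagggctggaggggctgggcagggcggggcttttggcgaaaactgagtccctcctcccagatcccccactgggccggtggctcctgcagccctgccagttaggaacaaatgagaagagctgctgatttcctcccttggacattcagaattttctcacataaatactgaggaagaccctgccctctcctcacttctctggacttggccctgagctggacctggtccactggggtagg
In DKK1, CTTTGAA lies 95 and CTTTGTT 76 bases before the start, and in WNT3, CTTTGTT begins at base 20 after it. A match is a description of letters in the window, and its absence says only that these letters are not there.

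Other genes of the pathway were counted from lists by function. Beside them, 20.4% of all genes tested were called higher and 23.9% lower in H9. In the RUES-2-labelled libraries the shares were 23.1% higher and 23.7% lower. The counts of this list and of those below were not tested against these shares. Of 3 genes that export or inactivate the ligand, 2 were higher and 0 lower in naive H9, and 2 were higher and 1 lower in naive RUES-2-labelled libraries. WLS, which carries lipid-modified WNT to the cell surface, had 116 ± 6.93 FPKM in naive H9 libraries, against 6.58 ± 4.66 FPKM in primed H9 libraries. It had 78.6 ± 20.0 FPKM in naive RUES-2-labelled libraries, against 8.57 ± 0.155 FPKM in primed RUES-2-labelled libraries. Its fold changes of 4.12 ± 0.33 (adjusted p = 9.9e-06) and 3.03 ± 0.33 (adjusted p = 6.47e-05) were the largest of these lists on the log2(FPKM + 1) scale. With a pseudocount of 0.1 the H9 value of WLS was 4.35, below 5.24 for RSPO2, 4.67 for RNF43 and 4.58 for NOTUM. In the RUES-2-labelled libraries it was then 3.15, below 3.24 for RSPO2 and smaller in size than -3.63 for RSPO4. NOTUM, which strips the lipid from secreted WNT, had 6.55 ± 2.29 FPKM in naive H9 libraries, against 0.238 ± 0.289 FPKM in primed H9 libraries, and 3.16 ± 1.04 FPKM in naive RUES-2-labelled libraries, against 0.569 ± 0.201 FPKM in primed RUES-2-labelled libraries. TRABD2A, a membrane protease that cuts WNT proteins, fell in the RUES-2-labelled libraries at -0.64 ± 0.12 (adjusted p = 0.00174), and in H9 it was -0.19 ± 0.12 (adjusted p = 0.22), called without primed H9 replicate 2 (0.0174).

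In the R-spondin module, which controls how many frizzled receptors stay at the surface, 7 of 9 genes were tested, with 4 higher and 1 lower in naive H9 and 2 higher and 2 lower in naive RUES-2-labelled libraries. RNF43, a ubiquitin ligase that removes frizzled receptors, had 11.9 ± 0.461 FPKM in naive H9 libraries, against 0.391 ± 0.176 FPKM in primed H9 libraries, and 6.77 ± 1.39 FPKM in naive RUES-2-labelled libraries, against 0.778 ± 0.147 FPKM in primed RUES-2-labelled libraries. It rose in both, and less in the RUES-2-labelled libraries, with a difference of -1.10 ± 0.19 (adjusted p = 0.0109). RSPO2, a ligand that shields frizzled receptors from RNF43, had 13.3 ± 9.26 FPKM in naive H9 libraries, against 0.218 ± 0.158 FPKM in primed H9 libraries, and 3.04 ± 2.2 FPKM in naive RUES-2-labelled libraries, against 0.234 ± 0.256 FPKM in primed RUES-2-labelled libraries. Its fold changes were 3.33 ± 0.50 (adjusted p = 0.000449) in H9 and 1.58 ± 0.50 (adjusted p = 0.0235) in the RUES-2-labelled libraries, the second call ending without naive RUES-2 replicate 1 (0.056) or 3 (0.0875) or primed RUES-2 replicate 1 (0.065) or 3 (0.0646). RSPO4, of the same family, fell, with fold changes of -1.33 ± 0.22 (adjusted p = 0.000771) in H9 and -1.66 ± 0.22 (adjusted p = 0.000178) in the RUES-2-labelled libraries. Of 10 other secreted or membrane modulators 3 were higher and 3 lower in naive H9, and 4 higher and 2 lower in naive RUES-2-labelled libraries. APCDD1, an inhibitor at the membrane, rose by 1.83 ± 0.34 (adjusted p = 0.00168) in H9 and 1.99 ± 0.34 (adjusted p = 0.00093) in the RUES-2-labelled libraries, as did KREMEN2, a DKK receptor, by 2.102 ± 0.18 (adjusted p = 1.21e-05) and 0.93 ± 0.18 (adjusted p = 0.00183). The rise of KREMEN2 was smaller in the RUES-2-labelled libraries by a difference of -1.18 ± 0.25 (adjusted p = 0.0243), a call that ended without any 1 of naive H9 replicate 2, naive RUES-2 replicates 1 and 2 and primed RUES-2 replicate 1 (adjusted p from 0.0524 to 0.0605). The difference was also called for SOSTDC1 and DKKL1, named after their values were seen, at 1.80 ± 0.18 (adjusted p = 0.0008) and 1.01 ± 0.25 (adjusted p = 0.0461), and that of DKKL1 ended without any 1 of 10 libraries (adjusted p from 0.0631 to 0.114), with no filter (0.0512), with either other scaling (0.0511 and 0.0545) and with the replicate block (0.0805). With a pseudocount of 0.1 these differences were 3.31 for SOSTDC1 and 2.03 for DKKL1. GPC4, a heparan sulphate proteoglycan, had 69.9 ± 4.34 FPKM in naive H9 libraries, against 305 ± 117 FPKM in primed H9 libraries, and 72.0 ± 10.96 FPKM in naive RUES-2-labelled libraries, against 204 ± 2.06 FPKM in primed RUES-2-labelled libraries.

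Inside the cell, 2 of 11 relay genes were higher and 3 lower in naive H9, and 3 higher and 1 lower in naive RUES-2-labelled libraries. AXIN2, a scaffold of the β-catenin destruction complex and a standard readout of the pathway, had 46.5 ± 1.78 FPKM in naive H9 libraries, against 7.49 ± 1.57 FPKM in primed H9 libraries, and 25.3 ± 5.50 FPKM in naive RUES-2-labelled libraries, against 10.9 ± 0.961 FPKM in primed RUES-2-labelled libraries. Its rise was 2.50 ± 0.16 (adjusted p = 2.33e-06) in H9 and 1.12 ± 0.16 (adjusted p = 0.000344) in the RUES-2-labelled libraries, with a difference of -1.38 ± 0.23 (adjusted p = 0.00816). CTNNBIP1, which keeps β-catenin from TCF proteins, fell, with fold changes of -0.60 ± 0.12 (adjusted p = 0.00208) in H9 and -0.69 ± 0.12 (adjusted p = 0.000847) in the RUES-2-labelled libraries. DVL2, which acts directly below frizzled, was 0.18 ± 0.08 (adjusted p = 0.113) in H9 and rose by 0.40 ± 0.08 (adjusted p = 0.0031) in the RUES-2-labelled libraries. Its relative DVL1, named after its values were seen, was called in opposite directions, at -0.49 ± 0.13 (adjusted p = 0.0102) in H9 and 0.42 ± 0.13 (adjusted p = 0.0199) in the RUES-2-labelled libraries, with a difference of 0.90 ± 0.18 (adjusted p = 0.0174). The RUES-2-labelled call of DVL1 ended without naive RUES-2 replicate 2, at 0.26 (adjusted p = 0.0526), without primed RUES-2 replicate 1 (0.066) or replicate 2 (0.0546), and with those 6 libraries alone (0.0585). Of 8 nuclear partners 3 were higher and 2 lower in naive H9, and 3 higher and 3 lower in naive RUES-2-labelled libraries. LEF1 had 12.5 ± 4.25 FPKM in naive H9 libraries, against 0.784 ± 0.955 FPKM in primed H9 libraries, and 7.54 ± 1.48 FPKM in naive RUES-2-labelled libraries, against 0.937 ± 0.197 FPKM in primed RUES-2-labelled libraries. TCF7 had 18.6 ± 2.90 FPKM in naive H9 libraries, against 3.31 ± 0.619 FPKM in primed H9 libraries, and 12.9 ± 1.63 FPKM in naive RUES-2-labelled libraries, against 4.38 ± 0.641 FPKM in primed RUES-2-labelled libraries. Both are DNA-binding partners of β-catenin and both rose, as did PYGO1, a co-activator, by 1.57 ± 0.19 (adjusted p = 0.00014) in H9 and 1.72 ± 0.19 (adjusted p = 7.39e-05) in the RUES-2-labelled libraries. TCF7L1, named after its values were seen, had higher means than LEF1, TCF7 and TCF7L2 in every group and fell in naive cultures. Its fold changes were -0.93 ± 0.15 (adjusted p = 0.000603) in H9 and -1.38 ± 0.15 (adjusted p = 4.87e-05) in the RUES-2-labelled libraries. TCF7L2, a further partner named after its values were seen, fell more in the RUES-2-labelled libraries, with a difference of -0.82 ± 0.18 (adjusted p = 0.0288) that ended without any 1 of 8 libraries (adjusted p from 0.0512 to 0.0767). Of 9 planar polarity genes 3 were higher and 3 lower in naive H9, and 2 higher and 5 lower in naive RUES-2-labelled libraries. VANGL1 rose by 0.81 ± 0.15 (adjusted p = 0.00195) and 0.76 ± 0.15 (adjusted p = 0.00263), and CELSR3, an adhesion receptor, fell, with fold changes of -1.02 ± 0.14 (adjusted p = 0.000258) and -0.95 ± 0.14 (adjusted p = 0.000347). PRICKLE1 was called in H9 at 0.66 ± 0.23 (adjusted p = 0.0379). This call ended without either of naive H9 replicates 1 and 3, either of primed H9 replicates 1 and 3, or naive RUES-2 replicate 1 (adjusted p from 0.0522 to 0.135). It also ended with the 6 H9 libraries alone (0.067), with the replicate block (0.062) and with no filter on low values (0.0537). In the RUES-2-labelled libraries PRICKLE1 was 0.52 ± 0.23 (adjusted p = 0.086), called without primed H9 replicate 2 (0.0403) or naive RUES-2 replicate 2 (0.0409). The difference between line labels was -0.14 ± 0.32 (adjusted p = 0.844).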

How the data were processed

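Per the labels, poly(A) RNA from 12 libraries in 4 groups of 3 was sequenced. The submitters' processing notes name bcl2fastq 2.17.1.14, TopHat2 2.1.1 and the build hg19. The authors deposited FPKM per gene with confidence bounds, per the file headers, while the design text speaks of RPKM. Which program and annotation gave the FPKM, and whether libraries were stranded, were points not given in the sources used here. Whole reads were not recovered (40.3% to 43.6% of implied fragment numbers were whole within 0.05), so no count test was run. From these bounds, a gene at 1 to 2 FPKM rests on about 47.5 to 112 fragments (median per library), and genes below that on fewer.

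Of a symbol's loci the one with the highest mean was kept. The 14429 of 23615 symbols that reached 1 FPKM in 3 or more libraries were log2-transformed after adding a pseudocount of 1 and fitted in R 4.3.3 by limma 3.58.1, with 4 group means over all 12 libraries, an empirical Bayes variance trend and two-sided tests, with Benjamini-Hochberg adjustment over all of them. The procedure was tested on simulated data for the H9 comparison alone, with changes placed only in better expressed genes. Low genes and the difference between line labels were not covered by it. The genes, lists and tests were chosen with earlier results of these data known. Genes called in a state comparison or for the difference were given in full, up to the 24 with the largest mean fold change, and WIF1, the 25th, was added after its values were seen. Of each list of other pathway genes, up to 3 called genes are named. Other pseudocounts, filters, scalings, sample sets, a replicate block and leaving out each library were tried. Hg19 gene positions come from the files, with starts made 1-based, and promoter windows come from RefSeq GRCh38.p14. In the deposited annotation FZD3, FZD8 and WNT9A each overlap a microRNA entry, and no other of the 45 genes overlaps an entry.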

Additional observations from a re-analysis of the deposited data

Results flagged for a closer look

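For 4 genes the naive against primed change differed between the line labels by the model's test of that difference, given as the RUES-2-labelled change minus the H9 change in log2(FPKM + 1). WIF1 differed by 1.63 (adjusted p = 0.0109), with opposite directions under the labels. Its H9 values were at most 0.844 FPKM. The H9 call of WIF1 ended without naive H9 replicate 1, 2 or 3 or primed H9 replicate 3 (adjusted p from 0.0608 to 0.0921). ROR2 differed by -1.56 (adjusted p = 0.0049), FZD10 by -1.38 (adjusted p = 0.0109) and FZD7 by -0.85 (adjusted p = 0.0403). The FZD10 call ended with a pseudocount of 0.1, at -0.35 (adjusted p = 0.815), and with 0.5, at -1.23 (adjusted p = 0.0524). That of FZD7 ended with no filter (0.0503), with a filter of 5 FPKM (0.0501) and without most single libraries. The comparison rests on libraries of which 3 did not match their line label, and what part line, label or culture had in it was not tested. Groups of 3 libraries are too small for a test of single outlying libraries.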

How the results depend on the processing

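The counts of genes called over the 14429 tested were 6392 for naive against primed H9, 6749 for the RUES-2-labelled libraries, 823 for their difference, 262 for the primed lines and 2289 for the naive lines. With a filter of 5 FPKM the difference gave 424, the primed lines 102 and the naive lines 1469 genes, and the members called higher became 7 in H9, 7 in the RUES-2-labelled libraries, 0 for the difference and 2 between naive lines, since fewer genes pass that filter. The primed line comparison also gave 27 genes with those 6 libraries alone, 170 with the replicate block and 96 without the libraries that did not match their label, an alternative chosen after seeing the data. Without 1 library at a time the counts ran from 408 to 920 for the difference, 61 to 385 for the primed lines and 1213 to 2811 for the naive lines, with 1 to 3 members called higher for the difference and 0 to 1 between primed lines. The cause of these shifts was not tested. Without the libraries that did not match, the H9 comparison called the same 23 members.

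Over the tested members and the named pathway genes other than TCF7L1, whose alternatives were not examined, no called fold change reversed under any alternative. Among 2265 values under alternatives other than leaving out a library, 22 lost and 9 gained a call, and among 2772 with a library left out, 81 lost and 27 gained one. With a pseudocount of 0.1 the called fold changes of 9 members moved by over 1.5 times, to between 0.253 and 3.45 times the value given. Same-numbered naive and primed libraries did not deviate together (correlation from -0.054 to 0.082). The groups are too small for this to exclude a shared culture or batch. The replicate block ended the RUES-2-labelled call of WNT3A (adjusted p = 0.0549) and gained calls between naive lines for WNT5A (0.0397) and FZD8 (0.0272), and changed no other member's call. Rescaling the libraries moved the median of all genes by under 0.1 and gained WNT9A alone among the members.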
